A study of Homo sapiens with 4 samples.

Results

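Replication-dependent histone genes encode the H1, H2A, H2B, H3 and H4 proteins that package newly made DNA. They were examined in MCF-10A, a non-cancerous human breast epithelial line, on 4 single-colour Agilent arrays. Members were the genes whose current symbol begins with H2AC, H2BC, H3C or H4C and a number, or is one of H1-1 to H1-6, as reached through the RefSeq accession of each probe. The current annotation holds 84 such symbols, and 67 of them (79 probes) were on the array among 20501 named genes. These were 6 H1, 17 H2A, 18 H2B, 12 H3 and 14 H4 genes, of which 1, H2AC2P, is annotated as a pseudogene. The 17 symbols with no matched probe were 12 pseudogenes, the protein-coding H2AC18, H2BC12L, H3C14 and H4C14, and the antisense transcript H2BC6-AS1.

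The cells had received 10 µM of stapled-peptide or of non-specific stapled-peptide for 24 h or 48 h, in a mammary medium with EGF, insulin, hydrocortisone and cholera toxin, and each condition was measured on 1 array. A stapled peptide is a short peptide whose helix is held by a chemical bridge between side chains. The comparison was made to look for off-target effects of stapled ERAP peptides in cells that lack the oestrogen receptor. The labels do not state which array received which numbered peptide of the study, and their treatment field reads control for non-specific stapled-peptide. Values are therefore given by label, and every peptide difference is non-specific stapled-peptide minus stapled-peptide. With no replicate arrays there is no test between conditions, and precision is limited by their number. A difference over 2-fold is a rule of size. Where a gene is given 4 log2 signals, they are in the order stapled-peptide then non-specific at 24 h, and stapled-peptide then non-specific at 48 h, and the first 3 arrays are all but the last of these. All 4 arrays came from 1 slide and 1 scan day.

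Cells make these histones mainly while they copy their DNA, in S phase, when each new stretch of DNA needs its own nucleosomes. H2A, H2B, H3 and H4 form the core around which DNA winds, and H1 binds the linker between cores. Their genes lie in clusters, mostly lack introns, and give mRNAs that end in a stem-loop bound by SLBP in place of a poly(A) tail. Replacement histones such as H3.3 and H2A.Z are made outside S phase as well, from polyadenylated mRNAs. The labelling kit used here starts from poly(A) tails, so the signals report whatever part of the histone transcripts was labelled, and how that part relates to all histone mRNA was not tested. Many of the genes are near-identical copies, and probes of one copy may bind transcripts of another.

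Promoters of H1-4, H1-1, H1-5, H4C2 and the H2AC13/H2BC13 pair are shown because they belong to members whose differences at 48 h, given below, were large in either direction. They are RefSeq sequences of GRCh38.p14, read 5′ to 3′ on the strand of the gene and ending at the base before its start. Capitals mark a TATA box, a CCAAT box or an H1 box, searched on both strands, with no base in more than one motif. H1-4 (chr6:26156129-26156328, plus strand) was the H1 gene with the largest higher difference.
H1-4: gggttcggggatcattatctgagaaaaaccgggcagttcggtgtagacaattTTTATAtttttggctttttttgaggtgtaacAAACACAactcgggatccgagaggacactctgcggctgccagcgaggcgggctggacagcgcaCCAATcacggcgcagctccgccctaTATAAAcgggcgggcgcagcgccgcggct
H1-1 (chr6:26017788-26017987, minus strand) and H1-5 (chr6:27867589-27867788, minus strand) were the H1 genes that were lower.
H1-1: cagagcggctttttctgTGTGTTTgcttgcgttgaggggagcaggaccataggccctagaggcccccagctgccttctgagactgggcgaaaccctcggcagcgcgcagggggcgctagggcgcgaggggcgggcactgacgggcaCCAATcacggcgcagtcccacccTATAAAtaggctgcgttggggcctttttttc
H1-5: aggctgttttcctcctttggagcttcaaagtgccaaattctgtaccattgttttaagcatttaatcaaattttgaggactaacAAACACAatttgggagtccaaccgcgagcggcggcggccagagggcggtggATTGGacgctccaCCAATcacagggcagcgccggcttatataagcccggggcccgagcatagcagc
H4C2 (chr6:26027284-26027483, minus strand) had the largest difference of the H4 genes, and its stretch held a TATA box and none of the other marked motifs.
H4C2: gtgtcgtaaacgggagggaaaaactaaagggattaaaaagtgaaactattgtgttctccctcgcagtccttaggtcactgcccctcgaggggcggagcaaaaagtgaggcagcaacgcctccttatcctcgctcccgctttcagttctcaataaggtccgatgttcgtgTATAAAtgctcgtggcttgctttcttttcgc
H2AC13 and H2BC13 start back to back, and the 243 bases between their starts (chr6:27807930-27808172, plus strand, H2AC13 to the right) are shown.
H2AC13/H2BC13: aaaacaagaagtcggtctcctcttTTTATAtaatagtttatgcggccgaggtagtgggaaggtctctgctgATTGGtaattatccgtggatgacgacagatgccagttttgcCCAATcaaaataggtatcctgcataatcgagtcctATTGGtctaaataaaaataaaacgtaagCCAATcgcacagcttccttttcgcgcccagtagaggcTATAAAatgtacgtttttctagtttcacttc

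In the 250 bases before the start, 61 histone genes could be searched beside 27305 promoters in all. Both strands were searched. TATAAA, the TATA box, was in 65.6% of the histone windows and in 11.1% of all windows. CCAAT was in every window of H1, H2A, H2B and H3 genes, in 3 of 12 H4 windows and in 33.0% of all. ATTTGCAT, the octamer known from H2B promoters, was in 14 of 18 H2B and 11 of 15 H2A windows, in 1 of 10 H3 windows, in no H1 or H4 window and in 1.66% of all. AAACACA, the H1 box, was in the windows of all 6 H1 genes, in no other histone window and in 4.95% of all. GTCCGC, the core that HINFP binds in H4 promoters, was in 6 of 12 H4 windows, in 1 H2A and 1 H2B window, and in 10.3% of all. These matches describe letters in a window, and their relation to the 48 h differences was not tested. The 3 H1 promoters printed above all hold the H1 box and the CCAAT box, although H1-4 was higher and H1-1 and H1-5 lower at 48 h.

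**Figure D1:**
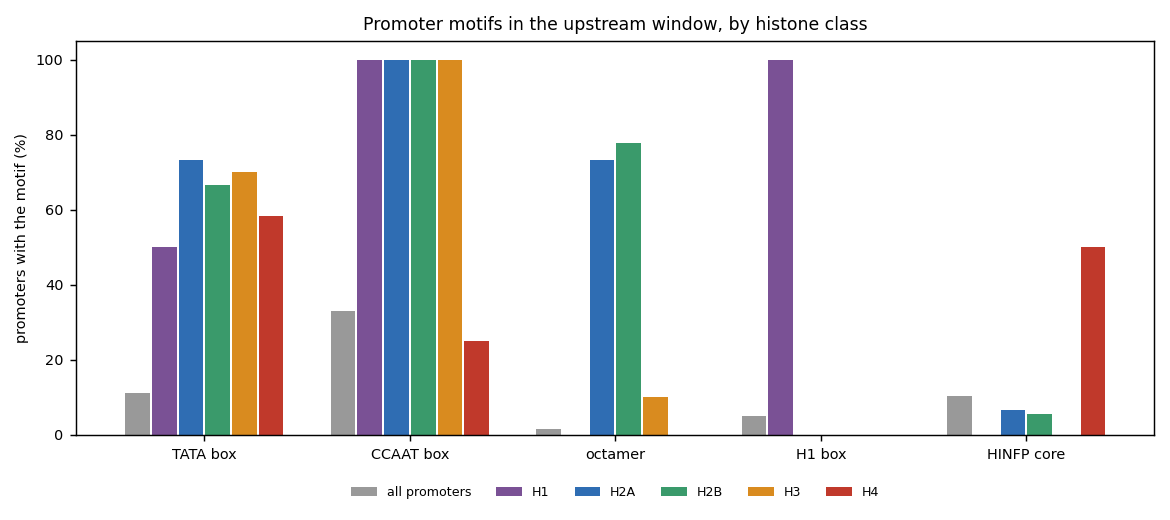
Share of promoters, in percent, with each motif in the 250 bases before the start, for all 27305 promoters (grey) and for the 61 histone promoters by class (colours). The H1 box is in 100.0% of H1 promoters and in 4.95% of all, and the CCAAT box is in 3 of 12 H4 promoters and in 100.0% of the other classes.

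One array stood apart from the rest. The 48 h non-specific stapled-peptide array correlated with the others at r = 0.84 over probes, with differences whose SD was 1.55 to 1.57 on the log2 scale, whereas the other 3 correlated with each other at r = 0.99 with SDs of 0.42 to 0.44. The other 3 arrays carried the keratins and laminins of basal mammary epithelium, the cell type of MCF-10A. On the 48 h non-specific stapled-peptide array 11 of the 12 basal markers were over 2-fold lower than with stapled-peptide. Of all genes in this comparison, 19.8% were over 2-fold lower and 21.2% over 2-fold higher. The log2 of the summed basal signal was 9.54, against 17.00 to 17.01 on the other arrays. KRT5, the basal keratin, had log2 signals of 14.65, 14.54 and 14.59 on those arrays and 5.02 on this one, and KRT6A was not well above background there. By the same 2-fold rule, 1 luminal marker was higher and 2 lower of 6, 3 of 5 fibroblast markers were lower, and 1 leukocyte marker was higher and 3 lower of 5. The log2 of the summed signal moved from between 14.90 and 14.98 to 12.68 for the luminal list, from between 14.85 and 14.97 to 7.62 for the fibroblast list, and from between 10.49 and 10.57 to 8.21 for the leukocyte list. COL1A2 and COL3A1 of the fibroblast list were dim (not well above background) on every array, and so was PGR of the luminal list. COL1A1 of the fibroblast list was above background on every array and differed by 0.13 at 48 h. DCN, of the same list, had log2 signals of 14.84, 14.96 and 14.88 on the first 3 arrays, close to that list's summed signal. On the 48 h non-specific stapled-peptide array DCN was at 5.73, a difference of −9.15. Of 8 markers of an embryonic kidney line with a difference, 5 were over 2-fold higher on this array, among them LIN28B, UCHL1 and BEX2 by at least 8.98, 10.36 and 10.38 on the log2 scale, and the log2 of that list's summed signal was 16.06 against 10.91 to 11.09. The other 3 with a difference went the other way, HOXA10 by −1.13 and PAX2 and L1CAM by bounds of −0.59 and −0.58. PHOX2A of this list was dim on every array, and CKB, HOXA9 and HOXA10 were above background on every array. Like the other lists, this one was chosen with earlier results of these data known. The part of the cell type markers in the histone differences at 48 h was not tested. With 1 array per condition, the peptide at 48 h and the array cannot be told apart, and in bulk RNA neither can fewer cells of a type and less RNA per cell. Every 48 h peptide difference below rests on this array.

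At 24 h the histone genes had nearly the same signals with both peptides. Of 65 genes with a difference, 64 lay within 2-fold, none was over 2-fold higher (0.838% of all genes were) and 1 was over 2-fold lower (1.04% of all). Their median difference was −0.07 on the log2 scale, against 0.01 over all 16228 genes, and 13 of the 65 were on the higher side (52.0% of all genes were). H3C11, an H3 gene of the chromosome 6 cluster, was the gene past 2-fold. At 24 h its log2 signal was 7.43 with stapled-peptide against 6.38 for the other peptide, and at 48 h it was 6.70 against 6.05. The first of these stands above the other 3, and the 24 h difference was −1.05. The largest higher differences at 24 h were 0.65 for H2BC1 and 0.62 for H1-6, which encode testis histones. Both were faint, at 4.25 and 4.91 for H2BC1 and 4.18 and 4.81 for H1-6. The lowest signals well above background on these 24 h arrays were 3.94 and 3.78.

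From 24 h to 48 h with stapled-peptide no histone gene passed 2-fold in either direction (0.923% of all genes were higher and 1.13% lower). The median difference, 48 h minus 24 h, was −0.04 for 65 histone genes and 0.00 for all genes. The largest differences were −0.74 for H3C11 and 0.50 for H4C16, the H4 gene on chromosome 12. Over the 3 arrays other than the 48 h non-specific stapled-peptide array, the range from lowest to highest log2 signal had a median of 0.12 for 64 histone genes above background and of 0.15 for 14842 genes, and 1 histone gene, H3C11, spanned over 2-fold. When that array was left out and the other 3 were normalized together, the counts at 24 h and over time with stapled-peptide were again 1 and 0.

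At 48 h most of the histone genes had a higher signal with non-specific stapled-peptide. Of 66 genes with a difference, 30 were over 2-fold higher (45.5%, against 21.2% of all genes) and 4 were over 2-fold lower (6.06%, against 19.8%). Over 4-fold higher were 15, or 22.7%, against 8.1% of all genes. The median difference was 0.90, or 1.87-fold, against 0.03 for all 17112 genes, and 54 of 66 were on the higher side against 51.1% of all. The 4 over 2-fold lower were H1-1, H1-5, H2AC19 and H2BC6. Without normalization 2 were, as H2AC19 then differed by −0.98 and H2BC6 by −0.85, and with normexp background correction H2BC6 differed by −0.41. H4C7 was dim on every array and has no value.

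The time comparison with non-specific stapled-peptide uses the same 48 h array and is not independent of these values. Between 24 h and 48 h, 30 of 66 histone genes were over 2-fold higher (21.3% of all genes) and 4 over 2-fold lower (20.1%), with a median of 0.88. On that array 29 histone genes lay over 2-fold above all of the other 3 (18.4% of all genes) and 4 lay over 2-fold below them (16.6%). On each of the other 3 arrays the count was 0 in both directions. Of all genes, 0.464%, 0.379% and 0.419% lay above the rest on these arrays in order, and 0.0396%, 0.0226% and 0.017% lay below.

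**Figure D2:**
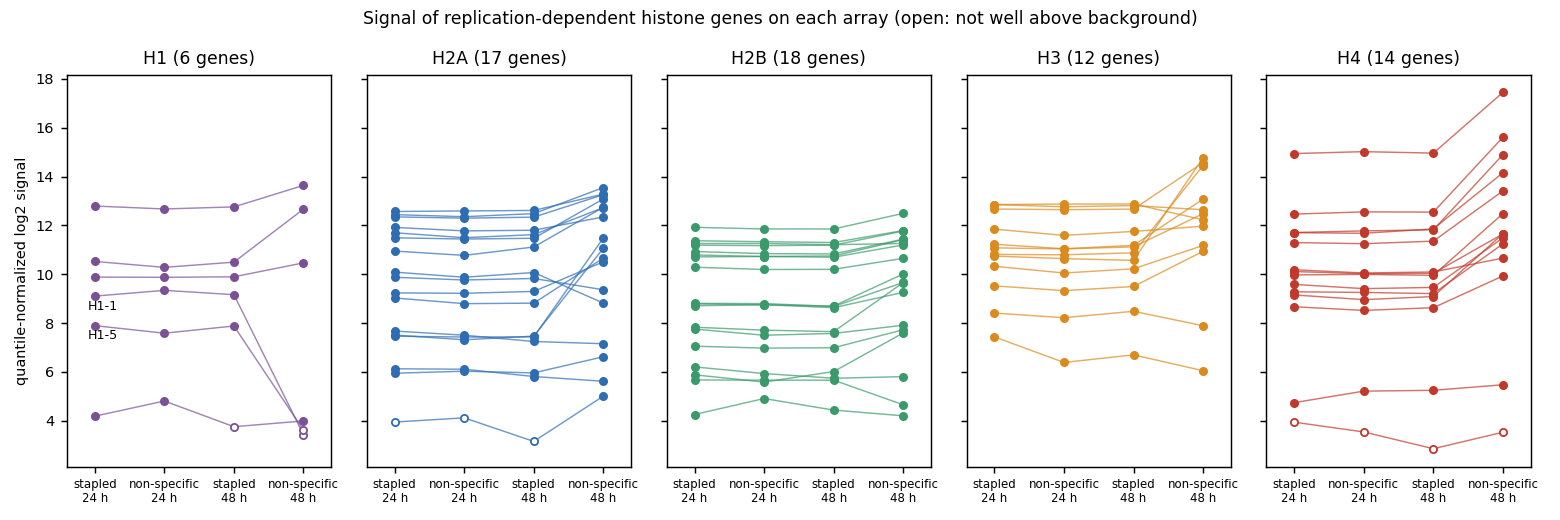
Quantile-normalized log2 signal of the 67 histone genes on each of the 4 arrays, 1 panel per class, with a line per gene. Open circles are values not well above background. The lines are nearly flat over the first 3 arrays (median range 0.12), and on the 48 h non-specific stapled-peptide array 29 genes lie over 2-fold above and 4 over 2-fold below the rest, with H1-1 and H1-5 the lowest of these relative to the other arrays.

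H1 genes encode the linker histones. Their 48 h differences went both ways, with 1 of 6 over 2-fold higher (16.7%, below the 21.2% of all genes), 2 over 2-fold lower (33.3%, against 19.8%) and a median of 0.34, against −0.06 at 24 h. The 48 h median holds bounds for 3 of the 6, namely H1-1, H1-5 and H1-6. Over the other 3, whose probes were above background on both arrays, it was 0.88. That set leaves out both lower genes, H1-1 and H1-5, because they were dim on the last array, so its higher median follows from the filter. H1-4, one of the main somatic H1 forms, had log2 signals of 10.52 (stapled-peptide) and 10.28 (non-specific) at 24 h, and of 10.49 and 12.67 at 48 h. Its 48 h difference was 2.17, or 4.51-fold. The last array alone was high, by far more than the 0.24 that separated the other 3. H1-2, another widely expressed H1, was at 12.79, 12.67, 12.76 and 13.64 in the same order, a 48 h difference of 0.88. H1-3 was at 9.88, 9.87, 9.89 and 10.46, a difference of 0.57. Both were highest on the last array while staying within 2-fold.

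H1-1 and H1-5 were the histone genes with the largest lower differences. H1-1, an H1 form found in fewer tissues, had log2 signals of 9.10, 9.34 and 9.16 on the first 3 arrays and of 3.42 on the 48 h non-specific stapled-peptide array, where its probe was not well above background. Measured against the dimmest signal that was still well above background there, H1-1 was at least 48.4-fold lower at 48 h (log2 bound −5.60). H1-5 was at 7.89, 7.58 and 7.88 and then at 3.61, also not well above background, which makes it at least 19.2-fold lower (bound −4.26). With normexp background correction the values of H1-1 and H1-5 were −3.19 and −2.04. For both genes the last array lay over 2-fold below the first 3, as it did for 16.6% of all genes. H1-6, the testis H1, was at 4.18, 4.81, 3.75 and 3.99, with the 48 h stapled-peptide value not well above background and a bound of 0.10 at 48 h.

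H2A genes encode a partner of H2B in the nucleosome core. At 48 h, 9 of 17 were over 2-fold higher (52.9%, against 21.2% of all genes) and 1 over 2-fold lower, with a median of 1.07, against −0.10 at 24 h. H2AC13 had log2 signals of 7.46, 7.43 and 7.43 on the first 3 arrays and of 11.48 on the 48 h non-specific stapled-peptide array, a 48 h difference of 4.05 or 16.6-fold. H2AC11 was at 7.51, 7.31, 7.46 and 11.06, a difference of 3.60. H2AC6 was at 9.03, 8.79, 8.81 and 10.66, a difference of 1.85. For these 3 genes the last array stood clear of a narrow band formed by the other 3.

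At the other end of the H2A class, H2AC19 was at 10.08, 9.88, 10.07 and 8.82, a 48 h difference of −1.25. H2AC8 was at 9.87, 9.76, 9.82 and 9.36, a difference of −0.46. H2AC1, a testis H2A, was at 6.13, 6.11, 5.81 and 5.61, a difference of −0.20. Of these, H2AC19 alone left the 2-fold range. It is one of a pair of near-identical copies, and its copy H2AC18 has no matched probe, so the signal cannot be assigned to one of them. The pseudogene H2AC2P was above background on the last array alone, at 5.01, and its 48 h difference is a bound of 1.12.

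H2B genes encode the partner of H2A, and most of them stayed within 2-fold. At 48 h, 16 of 18 had a higher signal and 14 lay within 2-fold, with 3 over 2-fold higher, 1 lower and a median of 0.59, against −0.05 at 24 h. The share over 2-fold higher, 16.7%, was below the 21.2% of all genes. H2BC11 was at 7.83, 7.71, 7.65 and 9.66, with a 48 h difference of 2.01. H2BC26, on chromosome 1, was at 5.88, 5.58, 6.01 and 7.59, with a difference of 1.58. H2BC3 was at 8.78, 8.74, 8.70 and 10.01, with a difference of 1.31. The last array again lay above the other 3 for each of them.

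The lowest H2B gene was H2BC6, with log2 signals of 5.67, 5.66, 5.66 and 4.65 and a difference of −1.01, just past the threshold. H2BC4, at 0.98, was the H2B gene just inside it on the higher side. H2BC1, the testis H2B, was at 4.25, 4.91, 4.43 and 4.20, a difference of −0.23 that is smaller than its range over the first 3 arrays. H2BC12 was at 11.26, 11.26, 11.21 and 11.26, a difference of 0.05 that left all 4 arrays together.

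H3 genes encode the histone whose tail carries many of the known methylation and acetylation marks. At 48 h, 6 of 12 were over 2-fold higher (21.2% of all genes were) and none was over 2-fold lower, with a median of 1.16, against −0.14 at 24 h. H3C15, on chromosome 1, had log2 signals of 10.74, 10.64 and 10.57 on the first 3 arrays and of 14.77 on the last. Its 48 h difference of 4.20, or 18.4-fold, was the largest higher difference among the histone genes. Its near-identical copy H3C14 has no matched probe, so this signal too may come from either. H3C2 was at 10.81, 10.79, 10.87 and 14.45, a difference of 3.58. H3C13 was at 12.67, 12.64, 12.67 and 14.57, a difference of 1.91.

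Among the H3 genes, 4 had a lower signal at 48 h, all within 2-fold. H3C3 was at 12.85, 12.87, 12.88 and 12.23, a difference of −0.65. H3C12 was at 8.41, 8.22, 8.48 and 7.89, a difference of −0.59. For both, the last array was the lowest of the 4. H3C11, described above, also differed by −0.65, but its 48 h values lay no farther apart than those of its 24 h arrays. The H3 class ran from −0.65 to 4.20.

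H4 genes encode the most conserved core histone, and as a class they had the highest median. All 13 H4 genes with a value were on the higher side at 48 h (51.1% of all genes were). Of these, 11 were over 2-fold higher (21.2% of all genes) and 9 over 4-fold higher (8.1%). The median was 2.06, with a range of 0.23 to 3.08. At 24 h the H4 median was −0.03, or 0.03 with normexp background correction. H4C2 was at 11.71, 11.77, 11.82 and 14.90, a 48 h difference of 3.08 or 8.48-fold. H4C13 was at 12.46, 12.55, 12.54 and 15.61, a difference of 3.07. H4C1 was at 9.15, 8.96, 9.09 and 11.66, a difference of 2.58. In each case the first 3 arrays spanned at most 0.19 and the last stood above them.

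The H4 genes with the smallest differences were H4C16, H4C11 and H4C6. H4C16 was at 4.74, 5.21, 5.24 and 5.47, a 48 h difference of 0.23 that is smaller than its difference of 0.47 at 24 h. H4C11 was at 10.18, 10.05, 10.09 and 10.66, a difference of 0.57. H4C6 was at 8.67, 8.52, 8.63 and 9.93, a difference of 1.30, so it was past 2-fold while the other pair was not. H4 genes whose window holds the HINFP core had a median difference of 1.67 (6 genes), and those without it 2.53 (5 genes).

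**Figure D3:**
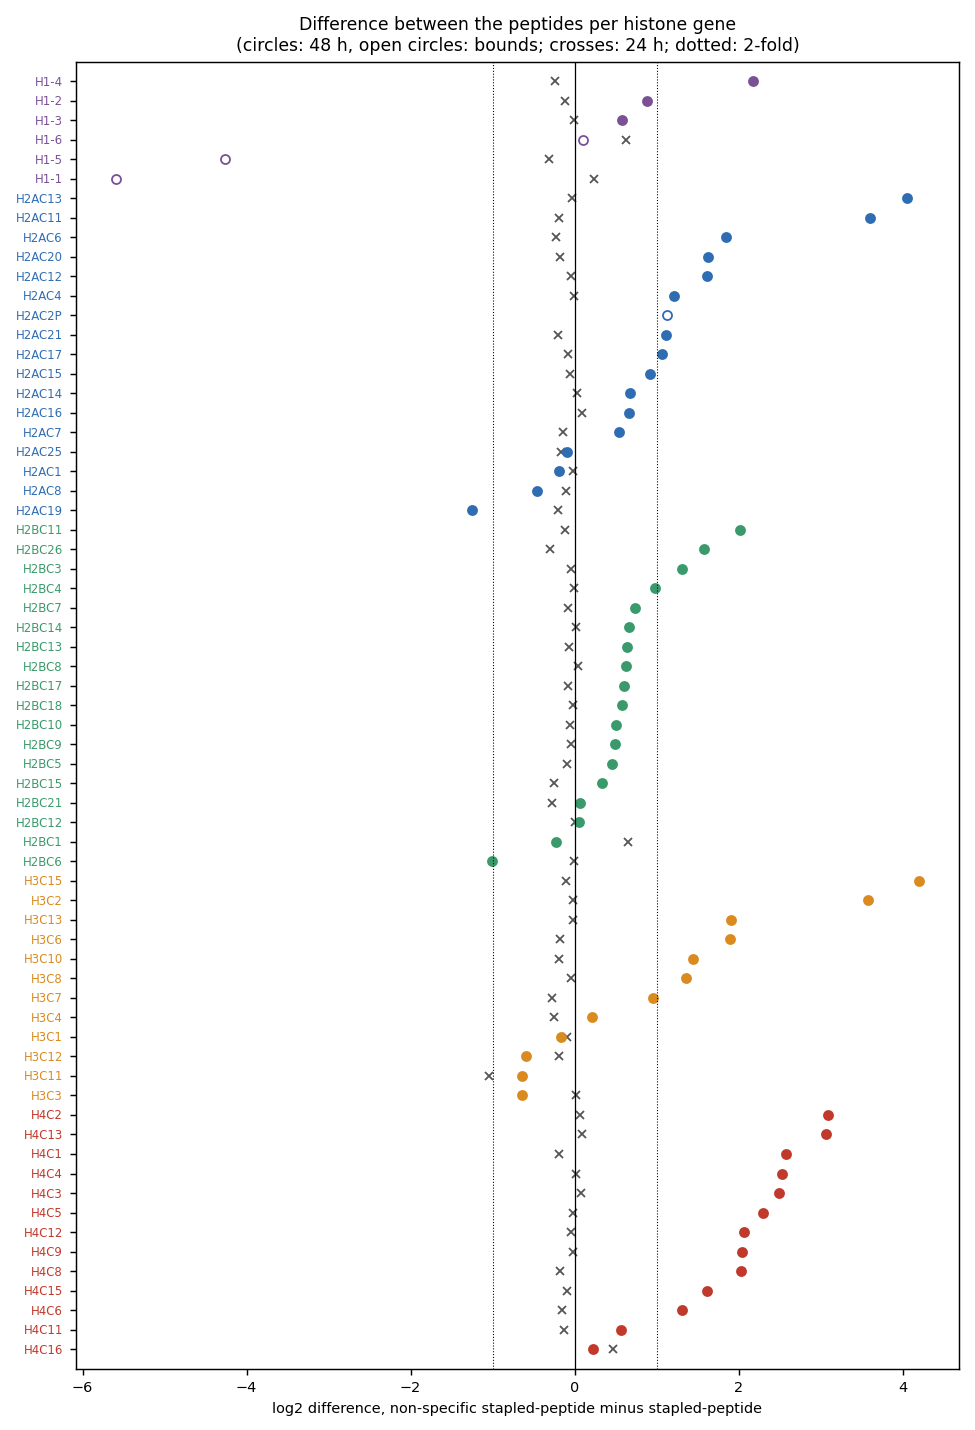
Log2 difference, non-specific stapled-peptide minus stapled-peptide, for each histone gene with a value, by class and in order of the 48 h difference. Circles are 48 h (open where the value is a bound), crosses are 24 h and dotted lines mark 2-fold. All crosses but that of H3C11 at −1.05 lie within 2-fold, while the circles run from −5.60 for H1-1 to 4.20 for H3C15, and all 13 H4 circles lie to the right of 0.

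Probes of the same gene did not always give the same value. Several probes with a 48 h difference, bounds included, were found for 10 histone genes. The differences had the same sign in 8 of these genes, and in 6 they lay over 2-fold apart. H2BC18 showed the widest gap. Its brightest probe had log2 signals of 11.19, 11.17, 11.19 and 11.77 and a 48 h difference of 0.58. Another probe of H2BC18 was at 7.06, 7.07, 7.19 and then 3.39, not well above background, a bound of −3.62, and a further one differed by 0.80. H2BC21 had a probe at 6.20, 5.93, 5.74 and 5.80, a difference of 0.07, and a second probe with a bound of −1.66. H3C10 differed by 1.44 at its brightest probe and by 3.28 at the other. H4C1 differed by 2.58 at its brightest probe, and its other probe gave a bound of 2.44. Each gene is represented here by the probe that was brightest on average, and the text gives a direction for H2BC18 and H2BC21 for that probe only.

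Some histone genes have longer annotated models, with introns or extended ends beside the short form. The 9 genes with a model of 1000 bases or more had a median 48 h difference of 0.58. Of these, 3 were over 2-fold higher (21.2% of all genes were) and none was over 2-fold lower (19.8% were). All 9 were on the higher side at their brightest probe (51.1% of all genes were). H2BC18 and H2BC21, which are among them, each have another probe with a lower bound, of −3.62 and −1.66. The 57 with a shorter model had a median of 0.92, with 27 over 2-fold higher and 4 lower. By chromosome, the 10 genes on chromosome 1 had a median of 1.34 and the 55 on chromosome 6 a median of 0.88. At 24 h the medians were −0.09 for the longer and −0.06 for the shorter models.

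Neighbouring genes often differed. In the chromosome 1 cluster H2AC19, at −1.25, is followed by H3C15, at 4.20. In the chromosome 6 cluster H1-1, with its bound of −5.60, is followed by H3C1 at −0.17 and then by H4C1 at 2.58. H1-5, with its bound of −4.26, lies between H2AC16 at 0.66 and H3C11 at −0.65. No histone gene next to H1-1 or H1-5 on the array was over 2-fold lower.

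H2A and H2B genes are often arranged back to back, and 11 such pairs on the array start 194 to 248 bases apart. At 48 h the H2A gene had the higher difference in 8 pairs and the H2B gene in 3. The members of 9 pairs had the same sign, and in 1 pair, H2AC11 and H2BC11, both were over 2-fold higher, by 3.60 and 2.01. H2AC13 and H2BC13, with the 243 bases between their starts printed above, differed by 4.05 and 0.64. In contrast, H2AC14 and H2BC14 differed by 0.67 and 0.66. H2AC25 and H2BC26 went the other way, with −0.09 and 1.58. Over the 11 pairs the medians were 0.92 for H2A and 0.64 for H2B, and the 48 h differences correlated across pairs at r = 0.35 and rho = 0.25, a description of points that share 2 arrays.

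**Figure D4:**
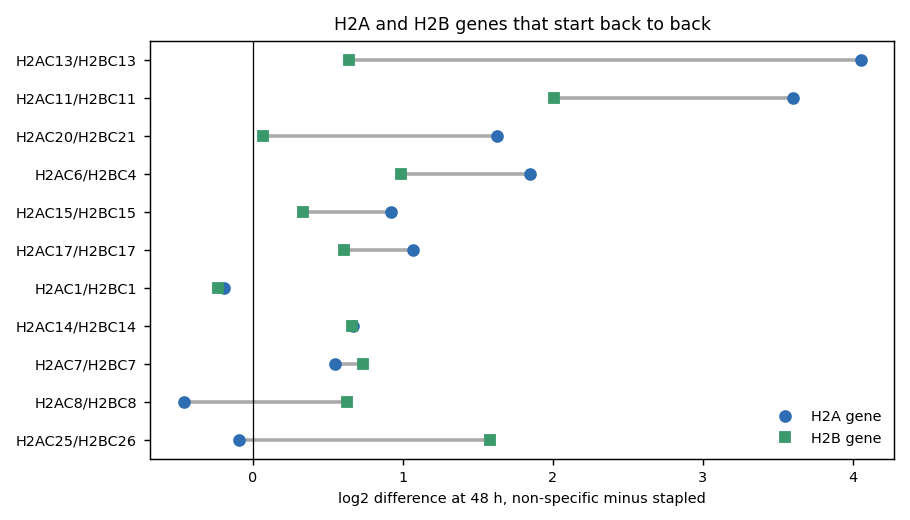
Log2 difference at 48 h, non-specific stapled-peptide minus stapled-peptide, of the H2A gene (circles) and the H2B gene (squares) of 11 pairs that start back to back, with a bar joining the members of a pair. The widest bar is that of H2AC13 (4.05) and H2BC13 (0.64), and the H2A gene lies to the right in 8 of 11 pairs.

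The listed replacement histones went both ways at 48 h. Of 11 with a value, 3 were over 2-fold higher and 1 lower, beside 21.2% and 19.8% of all genes, so the higher share is near that of all genes. The median was 0.47, or 0.23 with scaling to the 75th percentile, and none passed 2-fold at 24 h. MACROH2A2, a histone of silent chromatin, was at 6.77, 6.91, 6.85 and 9.22, a 48 h difference of 2.37. H2AZ1, the main H2A.Z gene, was at 13.08, 13.22, 13.07 and 14.78, a difference of 1.71. CENPA, the H3 form of centromeres, was at 6.89, 7.08, 6.91 and 8.59, a difference of 1.68. The next were H2AX, the H2A that is phosphorylated at DNA breaks, at 0.88 and the linker histone gene H1-10 at 0.58. The H3.3 genes H3-3A and H3-3B differed by −0.25 and −0.16, and H1-7 by −0.58. H2AJ was at 13.72, 13.69, 13.75 and 9.66, a difference of −4.08, and it was the replacement histone that lay far below its other 3 values. H2AZ2, at 0.01, completed the 5 lowest.

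Of 25 genes that control the transcription or processing of histone mRNA, 10 were over 2-fold higher (21.2% of all genes were) and 1 lower at 48 h, with a median of 0.58, and none passed 2-fold at 24 h. CASP8AP2, a part of the histone locus body, was at 6.18, 6.48, 6.49 and 8.40, a difference of 1.91. NPAT, the coactivator of histone genes that cyclin E and CDK2 phosphorylate, was at 4.92, 5.41, 5.32 and 6.39, a difference of 1.06. CCNE1, CDK2 and CCNE2 were higher by 3.45-fold, 3.19-fold and 2.83-fold, and ZNF473, a zinc finger protein of the processing complex, differed by 1.75 on the log2 scale. SLBP, the stem-loop binding protein, was at 10.94, 11.03, 10.85 and 11.43, a difference of 0.58 that stayed within 2-fold. HINFP, the H4 promoter factor, was at 8.51, 8.41, 8.35 and 8.90, a difference of 0.55. TUT7, which adds uridines to RNAs that are to be degraded, was at 7.53, 7.61, 7.58 and 5.53, a difference of −2.05. The next lowest were GON4L, FIP1L1, CPSF2 and CPSF1 at −0.73, −0.38, −0.18 and 0.16.

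Histone chaperones escort histones to the DNA. Of 23, 10 were over 2-fold higher (21.2% of all genes were) and none lower at 48 h, with a median of 0.84. CHAF1A and CHAF1B, subunits of the chromatin assembly factor that works behind the replication fork, differed by 2.74 and 2.61. MMS22L, NASP, which holds H3 and H4 in reserve, and ASF1B differed by 2.45, 2.34 and 1.89. HIRA, DAXX and ATRX, which place H3.3, differed by −0.16, 0.01 and −0.06, IPO4, an importin for histones, by 0.11, and the lowest chaperone was CDAN1 at −0.61. At 24 h the widest value was −0.65, for HIRA.

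Genes of DNA replication and S phase differed in 1 direction. At 48 h, 24 of 25 were over 2-fold higher (21.2% of all genes were) and none lower, with a median of 2.43, and the log2 of their summed signal was 17.54 against 15.33 to 15.44 on the other arrays. CDC45, of the replicative helicase, was at 9.72, 9.91, 9.63 and 13.76, a difference of 4.13. GINS3, CDT1, GINS2 and POLE2 followed with 3.75, 3.25, 3.20 and 3.08. PCNA, the sliding clamp, was at 11.82, 11.86, 11.77 and 13.27, or 2.83-fold higher at 48 h. The lowest was RRM2 at 0.58, and TYMS was 2.14-fold, RRM1 2.52-fold and TK1 3.39-fold higher. None passed 2-fold at 24 h, where the median was 0.10. MKI67, the usual marker of cycling cells, was at 8.18, 8.31, 8.36 and 7.38, a difference of −0.98. These lists differ on the same array as the histone genes and the cell type markers above, and their part in the histone differences was not tested.

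**Figure D5:**
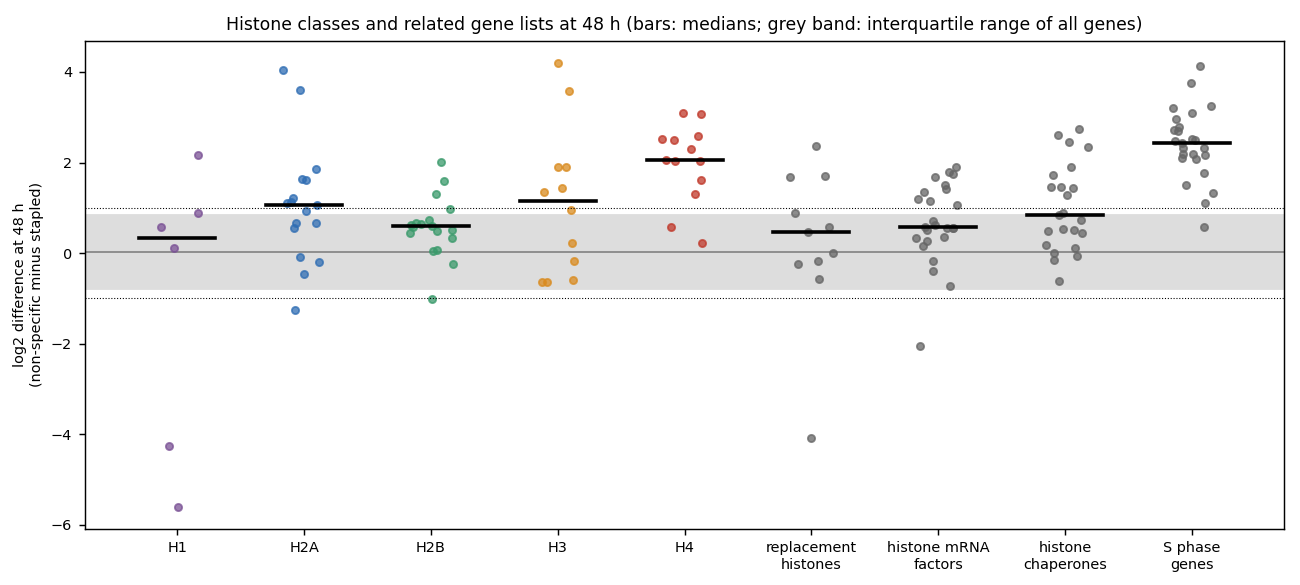
Log2 difference at 48 h, non-specific stapled-peptide minus stapled-peptide, for the histone classes (colours) and related lists (grey), with a point per gene and a bar at the median, and the interquartile range of all genes as a grey band. Dotted lines mark 2-fold. The medians run from 0.34 for H1 and 0.59 for H2B to 2.06 for H4, beside 2.43 for S phase genes and 0.47 for replacement histones.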

How the data were processed

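RNA of MCF-10A cells was labelled with Cy3 by the authors and hybridized to 4 single-colour arrays, 1 per peptide and time. The authors deposited spot intensities, which their Feature Extraction run (version 10.7.1.1 per the file headers, 9.5 per the submitters' processing notes) had background-subtracted and not normalized between arrays. A combined table deposited by the authors holds the mean intensity of a probe's spots. The other columns used are the software's marks for outlier, saturated and dim spots.

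Control spots and outlier-marked spots were left out, which dropped 9 probes and left 50590. Spot signals were log2-transformed, averaged per probe, held at a signal of at least 1 and quantile-normalized over the 4 arrays, the normalization the study's methods name. RefSeq accessions named 28168 probes (55.7%) through the GRCh38.p14 annotation, and accessions shared by several symbols were not used. The array grid was built on an older release, so no gene positions are printed apart from those of the RefSeq promoters. The probe with the highest mean over the arrays stood for its gene. A dim probe (not well above background) was set on that array to the smallest signal that was not dim, if it lay under it, which makes a difference with 1 dim side a bound. With 2 dim sides no difference was formed.

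No test was possible with 1 array per condition, and a difference past 2-fold is a rule of size read beside the share of all genes. Replicate spots of a probe had a log2 SD of 0.07, or 0.10 for a difference, which covers spots and not cultures. The histone genes and all gene lists were chosen with earlier results of these data known. Values on every array were given for the 3 highest and 3 lowest 48 h differences of each class, for genes past 2-fold at 24 h or over time with stapled-peptide, and for genes whose probes opposed each other. From the lists of replacement histones, histone mRNA factors, chaperones and S phase genes, the 5 largest differences in each direction were named, with SLBP, NPAT, HINFP, CASP8AP2, PCNA and MKI67. 1 gene of these lists is not reported here and is in none of their counts. Other genes named as neighbours or pair partners, or as further examples from a list, were chosen after their values were seen.

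The steps were tested on simulated data of 15575 genes, in which 100 of 100 genes changed 4-fold were past 2-fold, as were 0 of 100 changed less than 2-fold. The simulated arrays were copies of an array with noise added, and only these genes, all above background, were changed. In the 48 h peptide comparison 7020 of 17112 genes were past 2-fold and 2669 differences were bounds, a setting that the simulation does not cover. Python 3.11.15 with numpy 2.4.6, pandas 2.3.3 and matplotlib 3.10.9 was used, and limma 3.58.1 in R 4.3.3 for the normexp alternative. The alternatives were normexp with an offset of 50, scaling each array to its 75th percentile, unnormalized values, dim probes without a bound, leaving out all dim probes, the mean over a gene's probes, outlier-marked spots kept, the combined table, and thresholds of 1.5-fold and 4-fold.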

Additional observations from a re-analysis of the deposited data

How the results depend on the processing

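No paired analysis was possible because each condition has 1 array. For the same reason no replicate could be left out. Of the histone medians, that of H4 at 24 h changed sign, from −0.03 to 0.03 with normexp, and no 48 h median of the histone genes or of a class did under the alternatives run. The median histone difference at 48 h, 0.90 in the main setting, was 0.75 with scaling to the 75th percentile, 1.08 without normalization and 0.79 with normexp, while the median of all genes was 0.03, −0.06, 0.26 and 0.02 in the same order. Relative to the median of all genes, the histone genes stayed higher in each of these settings. The H4 median ran from 1.92 to 2.25 and the H2B median from 0.44 to 0.77 over the same settings. The H1 median at 48 h, 0.34, was 0.88 with dim probes left out, which leaves 3 genes and drops H1-1 and H1-5, the H1 genes that were lower. The 4 histone genes over 2-fold lower at 48 h became 2 without normalization, where H2AC19 and H2BC6 were within 2-fold, 2 with dim probes left out, 3 with normexp, 7 at 1.5-fold and 2 at 4-fold. The median over time with non-specific stapled-peptide, 0.88, was 0.75 with scaling to the 75th percentile, and that over time with stapled-peptide, −0.04, was −0.25 without normalization. The count at 24 h, 1 in the main setting, was 0 with normexp, where H3C11 no longer passed 2-fold, 3 at 1.5-fold and 0 at 4-fold. Over time with stapled-peptide the count of 0 was 1 at 1.5-fold. The counts of 34 at 48 h and over time with non-specific stapled-peptide were each 17 at 4-fold, which follows from the stricter threshold. Both are counts out of 66 histone genes. Of all 17112 genes at 48 h, 7020 were past 2-fold, 1386 over 4-fold higher and 1489 over 4-fold lower. Over time with that peptide these numbers were 7147, 1405 and 1465 of 17297 genes. At 48 h, 3 genes no longer passed 2-fold with scaling to the 75th percentile, 3 with normexp and 2 without normalization, where 5 others came to pass it. The cause of these shifts was not tested. Normalizing the 3 arrays other than the 48 h non-specific stapled-peptide array together was chosen after seeing the data and left the counts at 1 and 0. The differences of dim genes such as H1-1 and H1-5 are limited by the background of the array.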
